A study of Mus musculus with 8 samples.

Results

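The genes described here are a panel of 10 AP-1 and early response genes. Of these, 6 encode subunits of the transcription factor AP-1 (*Jun*, *Junb*, *Jund*, *Fos*, *Fosl1* and *Fosl2*), and the others are *Atf3*, *Egr1*, *Ier3* and *Myc*. The 10 genes were chosen by symbol. The rule itself used no measured value, but the members were chosen with earlier results of these data known. Of the 10 genes, 9 were found by symbol among the 22200 genes of the expression table, and *Jund*, which the table carries under the clone name AC162446.2, was found by its Ensembl identifier, ENSMUSG00000071076. All 10 had a mean of at least 10 normalised reads over the 8 libraries, the level that 12673 genes reached and that was required for testing. None of the 10 passed the test in any comparison, where 1.42% (12 h of retinoic acid against untreated), 3.67% (72 h against untreated) and 1.5% (72 h against 12 h) of all tested genes did.

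Immediate early genes are transcribed within minutes of a growth factor or stress signal, without new protein synthesis, through transcription factors that are already present and are activated by kinases. AP-1 is a dimer of a JUN protein with a FOS or another JUN protein, or with a related ATF protein, held together by a leucine zipper, and in fibroblasts it links serum and matrix signals to proliferation, migration and protease genes. Ligand-bound retinoic acid receptors have long been known to restrain AP-1 activity, largely without binding AP-1 sites themselves.

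All libraries came from immortalised mouse embryonic fibroblasts (MEFs) of genotype TAF4-/- on a C57BL/6 background, so every group lacked TAF4, which is part of the TFIID complex that nucleates transcription initiation, and no TAF4-expressing library was in the series. Polyadenylated RNA was sequenced from 3 untreated libraries, labelled 12 h, from 3 libraries taken after 12 h of retinoic acid (RA) and from 2 taken after 72 h of RA. All titles carry the same tag, cl1, and nothing in the labels states that libraries of a group came from separate cultures, so p-values measure only the spread between these libraries, which may be technical. No untreated library was labelled 72 h, so RA and time in culture cannot be told apart in the comparison of 72 h with untreated cells, and in bulk RNA fewer expressing cells and less RNA per cell cannot be told apart.

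The deposited values were quantile normalised, so each library held the same set of values, with a total of 9442018.6 normalised reads and a lowest value of 1, and the sequencing depth behind them is unknown. *Taf4a*, the targeted gene, read 984 to 1449 over the 8 libraries, a gene-level value that does not check a partial deletion. The RA labels were checked on *Cyp26b1*, the RA-degrading enzyme, which read 40.4 to 73.0 untreated, 3252 to 4620.1 at 12 h and 4477 to 6306 at 72 h. Of 12 fibroblast markers 9 had a mean of at least 10 normalised reads. *Col1a1* and *Col3a1* were abundant, whereas *Thy1* and *Lum* stayed below 4 normalised reads in every library. The summed epithelial, endothelial, leukocyte and pluripotency markers each stayed below 100 normalised reads. Whether such low values mean absent transcripts was not tested. The 8 libraries also separated within their groups along 1 axis holding 50.1% of the within-group variance. Untreated 1 and 2, RA 12 h 3 and RA 72 h 2 lay on one side of it (side 1) and untreated 3, RA 12 h 1 and 2 and RA 72 h 1 on the other (side 2). The sides were defined from these data, as no batch is given in the labels. A fit with the side as a term takes out spread found in these same libraries. Its p-values therefore tend to be too low and serve as description only. Side 1 holds 1 library of each RA group, and side 2 holds 1 untreated and 1 RA 72 h library, so changes within a side are not replicated.

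*Jun* encodes the prototype AP-1 subunit and is transcribed from its own AP-1-like sites. It is a gene of 1 exon on the minus strand at chr4:94715725-94718913 (mm9). The RefSeq promoter set (GRCm38.p6) held windows from 250 bases before to 50 bases after the start for 7 of the 10 genes: *Jun*, *Junb*, *Jund*, *Fos*, *Fosl2*, *Atf3* and *Ier3*. The 250 bases before the start are shown for *Jun* and *Fos*, the founding members of the 2 AP-1 families, which carry the known types of site that bind JUN, ATF and CREB proteins. Capitals mark TTACCTCA and TGACATCA in *Jun* and TGACGT, the core of the cyclic AMP response element, in *Fos*.
Jun, chr4:95052223-95052472, minus strand: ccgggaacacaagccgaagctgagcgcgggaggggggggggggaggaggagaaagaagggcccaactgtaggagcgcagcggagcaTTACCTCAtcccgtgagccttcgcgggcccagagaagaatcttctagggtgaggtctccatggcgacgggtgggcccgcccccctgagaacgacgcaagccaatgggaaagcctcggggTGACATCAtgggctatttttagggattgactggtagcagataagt
Fos, chr12:85473640-85473889, plus strand: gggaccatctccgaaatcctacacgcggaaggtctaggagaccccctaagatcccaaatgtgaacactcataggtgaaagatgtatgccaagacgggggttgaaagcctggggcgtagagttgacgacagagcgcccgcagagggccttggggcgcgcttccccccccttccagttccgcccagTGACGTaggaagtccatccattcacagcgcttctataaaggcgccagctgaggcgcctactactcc

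In *Jun* the capitals began 164 and 45 bases before the start, and in *Fos* 66 bases before it. Searched on both strands, TTACCTCA was in 0.889%, TGACATCA in 3.62% and TGACGT in 7.51% of the 32851 windows of this length. These 3 strings were added to the search after the sequences had been seen. *Atf3* also held TGACGT, on the strand opposite the gene. The consensus AP-1 site TGACTCA or TGAGTCA (5.2% of windows), the full element TGACGTCA (1.79%, which contains TGACGT), the CArG box bound by SRF (1.63%) and the retinoic acid receptor repeat, AGGTCA in 2 direct copies spaced by 5 bases (0.00913%), were in none of the 7 windows, which says only that these letters were not in those 300 bases. *Junb*, *Jund*, *Fosl2* and *Ier3* held none of the strings searched.

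The *Jun* level was highest in the 72 h libraries. The untreated libraries read 1724.5, 1470.4 and 1346 normalised reads, the RA 12 h libraries 1382, 1223 and 1534, and the RA 72 h libraries 1851 and 1859.6. The 72 h values lay above all others, and the untreated and 12 h values overlapped. Against untreated cells the log2 change was 0.30 at 72 h (95% interval 0.02 to 0.58, limma adjusted p = 0.172) and -0.13 at 12 h (-0.38 to 0.12, limma adjusted p = 0.609). Between 12 and 72 h it was 0.43 (0.15 to 0.71, limma adjusted p = 0.0701). It was 0.28 on side 1 alone, with 1 library in each of these groups, and 0.51 on side 2 alone, with 1 library at 72 h. When the fit included the side, the change between 12 and 72 h was 0.40 (limma adjusted p = 0.00742) and that at 72 h against untreated 0.33 (limma adjusted p = 0.0199), both below the 2-fold minimum of a call. The side was taken from these same libraries, so these p-values tend to be too low. Without untreated replicate 3, which enters only the shared estimate of the spread, the change between 12 and 72 h had a limma adjusted p of 0.0302.

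*Junb*, whose product often opposes JUN at proliferation genes, is a gene of 1 exon on chromosome 8. It read 1167.5, 1589 and 970.5 normalised reads in untreated cells, 1285, 1249 and 1512 at 12 h of RA, and 1451 and 1924 at 72 h. The highest value was again at 72 h, but the untreated libraries themselves spanned 1.64-fold and overlapped both RA groups. The log2 change at 72 h was 0.46 (0.06 to 0.85, limma adjusted p = 0.145). Within side 1 it was 0.50 and within side 2 it was 0.58, with 1 library at 72 h on each side. With the side as a term the change was 0.52 (limma adjusted p = 0.00137), and without untreated replicate 2 it was 0.65 (limma adjusted p = 0.0185). Leaving out each library in turn gave 0.25 to 0.66. At 12 h the log2 change was 0.14 (-0.21 to 0.50, limma adjusted p = 0.709).

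*Jund*, the JUN family member that most cells express without stimulation, is also intronless and lies on chromosome 8. It read 3622, 3793 and 2949.6 normalised reads untreated, 3504, 3478 and 3799 at 12 h, and 2759 and 3417 at 72 h. Both 72 h values lay below all 12 h values, while the untreated group overlapped both. The log2 change was 0.06 at 12 h (-0.19 to 0.32, limma adjusted p = 0.827), -0.16 at 72 h (-0.45 to 0.12, limma adjusted p = 0.508) and -0.23 between 12 and 72 h (-0.51 to 0.06, limma adjusted p = 0.403). With the side as a term the last of these was -0.27 (limma adjusted p = 0.0451).

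**Figure D1:**
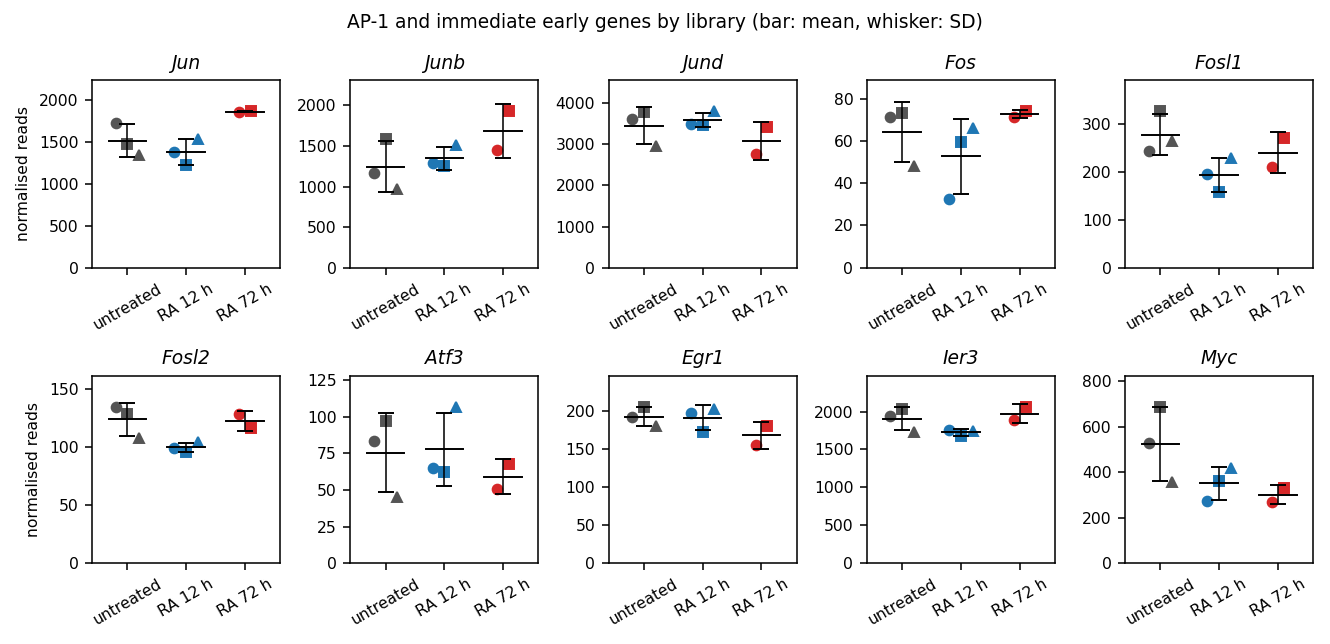
Normalised reads (vertical axis, linear from 0) of the 10 genes in each library, by group; circles, squares and triangles are replicates 1, 2 and 3, the line is the mean and the whisker the SD (n = 3, 3 and 2). *Jun* at 72 h (1851 and 1859.6) lies above all other libraries, and untreated replicate 3 (dark triangle) is the lowest untreated library in 9 of the 10 genes.

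*Fos* encodes the classic serum-induced partner of JUN and lies on the plus strand at chr12:86814840-86818223 (mm9) with 4 exon blocks. It was low in all libraries: 71.5, 73.4 and 48.0 normalised reads untreated, 32.75, 59.5 and 66.3 at 12 h, and 71.5 and 74.0 at 72 h. RA 12 h replicate 1 was the lowest, the 12 h group alone spanned 2.02-fold, and both 72 h values lay above all 12 h values. Its log2 change was -0.31 at 12 h (-0.87 to 0.24, limma adjusted p = 0.581), 0.20 at 72 h (-0.42 to 0.82, limma adjusted p = 0.733) and 0.52 between the 2 times (-0.11 to 1.14, limma adjusted p = 0.372). The last interval reaches past 2-fold. Without RA 12 h replicate 1 the change at 12 h was -0.0086.

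*Fosl1* encodes FRA1, a FOS protein without the strong activation domain of FOS that is abundant in migrating fibroblasts. It read 244, 326 and 264 normalised reads untreated, 196, 157.5 and 229 at 12 h of RA, and 210.4 and 270.4 at 72 h. All 12 h values lay below all untreated values, and the 72 h values overlapped both groups. The log2 change at 12 h was -0.52 (-0.88 to -0.16, limma adjusted p = 0.111). Taken alone, side 1, with 1 library at 12 h, gave -0.30, and side 2, with 1 untreated library, gave -0.58. The change at 12 h was -0.43 with the side as a term (limma adjusted p = 0.0437), still less than 2-fold. At 72 h it was -0.21 (-0.61 to 0.19, limma adjusted p = 0.545).

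*Fosl2* encodes FRA2, the other FOS-related antigen. The untreated libraries read 134.5, 128.6 and 108 normalised reads, the 12 h libraries 99.0, 95.75 and 104, and the 72 h libraries 128 and 116. The 12 h values were the lowest and overlapped neither of the other groups. The log2 change was -0.31 at 12 h (-0.61 to 0.0022, limma adjusted p = 0.310) and -0.012 at 72 h (-0.36 to 0.33, limma adjusted p = 0.975). *Fosb*, the remaining FOS gene, was not among the 10 and read 20.75 to 35.9 normalised reads over the 8 libraries.

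Levels of different genes were compared as normalised reads per kilobase of exon, which assumes reads along the whole transcript, whereas the labels describe libraries of tags beside DpnII sites. Per kilobase in untreated cells the order was *Ier3* (1682), *Jund* (1200.4), *Junb* (688), *Jun* (475), *Myc* (193), *Fosl1* (163), *Egr1* (62.2), *Atf3* (38.0), *Fos* (27.3) and *Fosl2* (21.1). The ranges of neighbours overlapped for *Junb* and *Jun*, *Myc* and *Fosl1*, *Atf3* and *Fos*, and *Fos* and *Fosl2*. The 3 JUN genes together made up 91.8% ± 0.744 (SD, n = 3) of the 6 AP-1 subunit genes' summed reads per kilobase in untreated cells, 94.1% ± 0.432 (SD, n = 3) at 12 h and 93.1% ± 0.0610 (SD, n = 2) at 72 h. The FOS genes took the remainder. It was 7.43%, 8.41% and 8.88% in the untreated libraries, 5.82%, 5.54% and 6.39% at 12 h, and 6.97% and 6.89% at 72 h. The 3 groups did not overlap, but how often such a composite share separates groups was not computed. Groups did not overlap for 20% (12 h against untreated), 36.6% (72 h against untreated) and 37.3% (72 h against 12 h) of single tested genes. *Fosl1* alone made up 72.8% to 79.9% of the FOS genes in the untreated libraries, so the FOS share is not independent of the *Fosl1* values above. *Jund* took 45.4% or more of the 6 genes in the untreated and 12 h libraries and 38.1% and 39.0% in the 72 h libraries, where *Junb* took 31.9% and 35.0% against 24.5% to 30.3% elsewhere. No test was run on these shares.

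**Figure D2:**
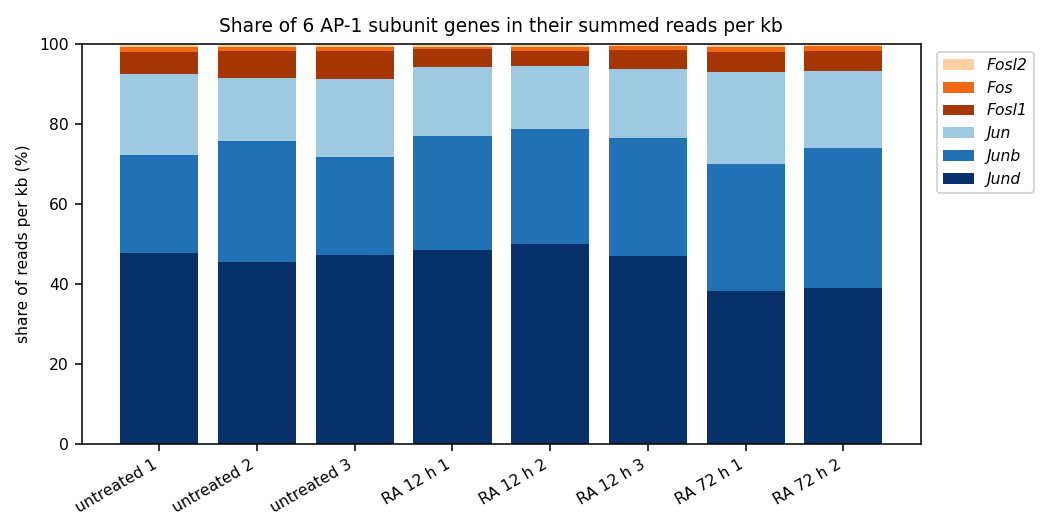
Share (%, vertical axis from 0) of each of 6 AP-1 subunit genes in their summed normalised reads per kilobase of exon, 1 bar per library. JUN genes (blue) make up over 91% of every bar, and *Jund* (darkest blue) takes 45.4% or more of the untreated and 12 h bars and 38.1% and 39.0% of the 72 h bars.

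*Atf3*, a stress-induced repressor that pairs with JUN proteins, was the most variable of the 10 genes. It read 83.75, 97.4 and 45.25 normalised reads untreated, 64.9, 62.0 and 107 at 12 h, and 50.75 and 67.6 at 72 h. The untreated libraries spanned 2.15-fold and all groups overlapped. The log2 change was 0.07 at 12 h (-0.54 to 0.68, limma adjusted p = 0.926) and -0.29 at 72 h (-0.97 to 0.39, limma adjusted p = 0.642).

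*Egr1*, a zinc finger factor induced through SRF and its ELK partners, read 192.5, 205 and 180.1 normalised reads untreated, 198, 172 and 202.5 at 12 h, and 155 and 181 at 72 h. All groups overlapped. Its log2 change was -0.015 at 12 h (-0.29 to 0.26, limma adjusted p = 0.967) and -0.20 at 72 h (-0.51 to 0.11, limma adjusted p = 0.450), so both intervals lay within 2-fold. The related *Egr2*, *Egr3* and *Egr4* had means below 10 normalised reads and were not tested.

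*Ier3*, an anti-apoptotic early response gene, had the smallest spread of the 10. It read 1942.5, 2030.5 and 1735 normalised reads untreated, 1759, 1672 and 1746 at 12 h, and 1883 and 2061.5 at 72 h. The 12 h values lay below both 72 h values and overlapped the untreated group. Its log2 change was -0.14 at 12 h (-0.34 to 0.07, limma adjusted p = 0.507) and 0.05 at 72 h (-0.18 to 0.28, limma adjusted p = 0.814), the narrowest intervals of the list.

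*Myc*, the growth-promoting partner of MAX, lies on the plus strand at chr15:61816946-61821929 (mm9). It read 526, 687 and 359 normalised reads untreated, 272, 363 and 417.5 at 12 h, and 270.4 and 330.5 at 72 h. Both 72 h values lay below all untreated values, and the 12 h values overlapped the lowest untreated library, replicate 3. The log2 change was -0.55 at 12 h (-1.004 to -0.09, limma adjusted p = 0.203) and -0.76 at 72 h (-1.27 to -0.25, limma adjusted p = 0.0567). The untreated group spanned 1.92-fold, and without untreated replicate 3 the change was -0.80 at 12 h (limma adjusted p = 0.00769) and -1.01 at 72 h (limma adjusted p = 0.00157), the latter past both thresholds. That fit is 1 end of a wide range. Leaving out each library in turn gave -0.80 to -0.33 at 12 h and -1.01 to -0.54 at 72 h. Within side 1, with 1 library in each RA group, the changes were -0.53 at 12 h and -0.86 at 72 h. Within side 2, whose only untreated library is replicate 3, they were -0.19 and -0.41. With the side as a term the 72 h change was -0.67 (limma adjusted p = 0.00111), less than 2-fold.

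**Figure D3:**
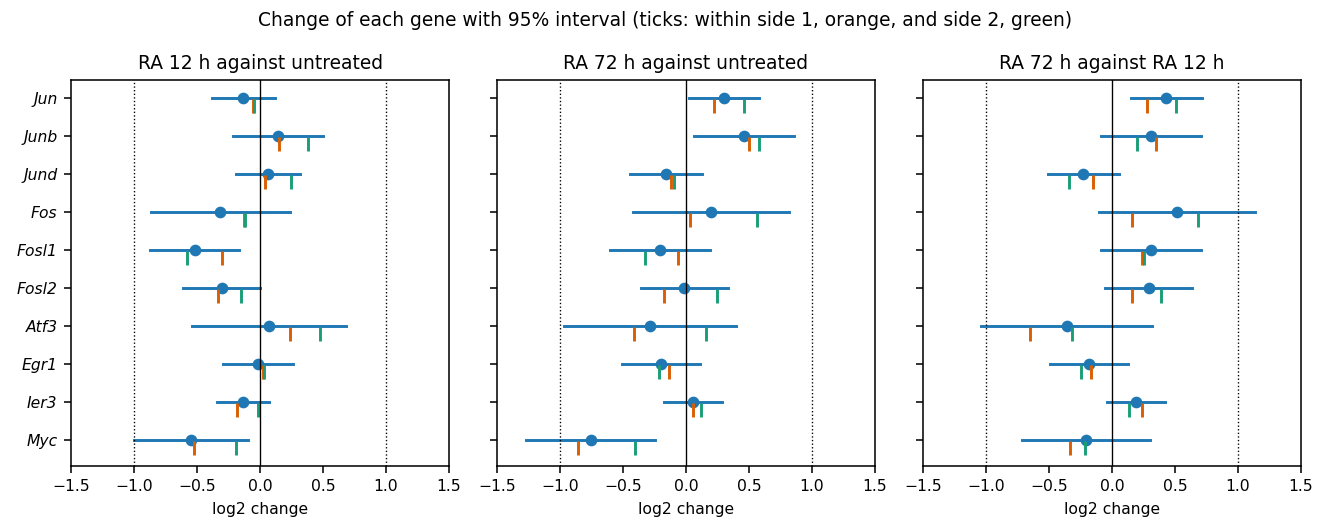
Log2 change (horizontal axis) of each gene in the 3 comparisons, with the 95% interval from limma; dotted lines mark 2-fold, and ticks give the change within side 1 (orange) and side 2 (green). *Myc* at 72 h (-0.76) is the largest change, and no point passes 2-fold.

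A gene was called where the limma adjusted p was below 0.05 and the change at least 2-fold. At 12 h of RA against untreated cells 0 of the 10 genes were called, against 1.42% of all tested genes (1.11% higher and 0.308% lower). Without a fold minimum the count was still 0, against 4.37%. At an unadjusted limma p below 0.05 there were 2, *Fosl1* and *Myc*, both lower, against 16.3% of tested genes (7.96% higher and 8.33% lower). Groups did not overlap for 2 genes, *Fosl1* and *Fosl2*, both lower, against 20% of tested genes (9.42% higher and 10.6% lower). At 72 h against untreated cells 0 were called, against 3.67% (2.15% higher and 1.52% lower), and 0 without a fold minimum, against 11.5%. At an unadjusted limma p below 0.05 there were 3, *Jun* and *Junb* higher and *Myc* lower, against 23.9% (11.5% higher and 12.4% lower). Groups did not overlap for *Jun*, higher, and *Myc*, lower, against 36.6% (17.2% higher and 19.4% lower). These comparisons share the untreated libraries.

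Between 12 and 72 h of RA 0 genes were called, against 1.5% (0.765% higher and 0.734% lower), and 0 without a fold minimum, against 5.84%. *Jun* was the 1 gene with an unadjusted limma p below 0.05, and it was higher, against 18.9% (8.86% higher and 10% lower). Groups did not overlap for 5 genes, *Fos*, *Fosl2*, *Ier3* and *Jun* higher and *Jund* lower at 72 h, against 37.3% (18.1% higher and 19.2% lower). With 10 genes, 1 gene moves a share by 10 percentage points, and no test was run on these counts. The 95% interval lay wholly within 2-fold for 9 of the 10 genes at 12 h, for 9 at 72 h and for 8 between the times, against 85.5%, 76.6% and 82.1% of tested genes. The median log2 change of the 10 was -0.14, -0.09 and 0.24 in the 3 comparisons, and that of all tested genes -0.02, -0.02 and -0.0019.

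Within groups the 10 genes leaned towards the same side on average, though no correlation between them was computed. Untreated replicate 3 was the lowest untreated library for 9 of them, all but *Fosl1*, as it was for 39.4% of tested genes. All 10 were on average higher on side 1 than on side 2, by 0.09 (*Fosl2*) to 0.68 (*Atf3*) on the log2 scale, as 50.1% of tested genes were. These counts overlap, since untreated replicate 3 lies on side 2. Not every library followed its side. For example, *Fosl1* deviated by -0.18 in untreated 1, *Fos* by 0.23 in RA 12 h 2 and *Fosl2* by 0.07 in RA 72 h 1. Their median within-group SD was 0.205 on the log2 scale and that of tested genes 0.188. The part of the side in the changes above is described by the within-side values and the fits with the side as a term, and was not tested. The 10 genes were also short, with a median span of 3581 bases (1240 to 21360) in the mm9 annotation against 28105 for tested genes.

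**Figure D4:**
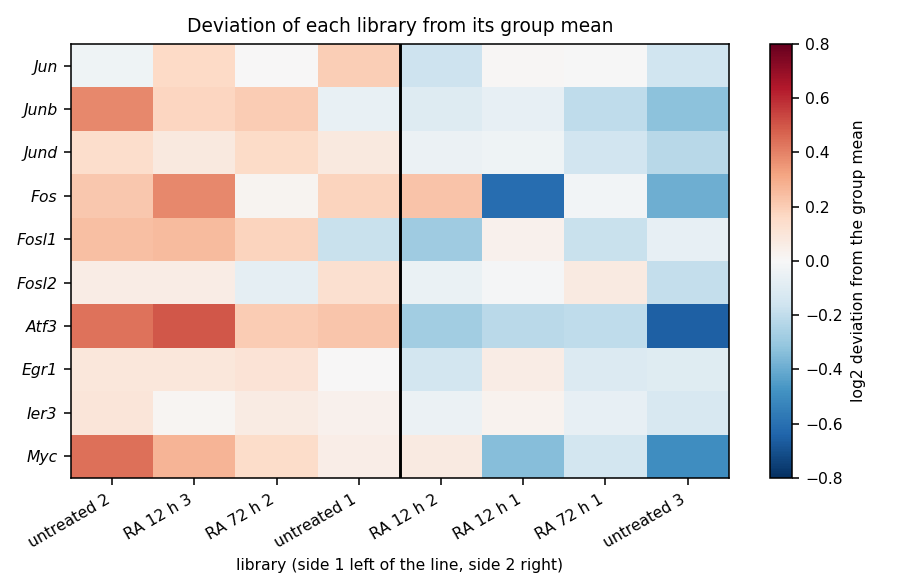
Deviation of each library from its group mean (log2, colour scale) for the 10 genes, with libraries ordered along the within-group axis; the line separates side 1 from side 2. Red prevails on the left and blue on the right, with untreated replicate 3 at the far right lowest for *Atf3*, *Myc* and *Junb*.

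Other genes of the same class and pathway were taken from lists. The counts called in each list stand beside 1.42% of all tested genes called at 12 h, 3.67% at 72 h and 1.5% between the times. The lists were chosen with earlier results of these data known, and no enrichment was tested. Of 51 other immediate early genes 44 were tested, and at 12 h 3 rose and 2 fell. *Dusp1*, a phosphatase that inactivates MAP kinases, rose from 3887, 2852 and 3088 normalised reads to 7831, 6707 and 7181 (2.22-fold, log2 SE 0.14, limma adjusted p = 0.000170) and read 7303 and 5445 at 72 h. *Dusp6*, which inactivates ERK, fell from 137, 127 and 143 normalised reads to 56.6, 62.6 and 68.5 (log2 change -1.11, SE 0.15, limma adjusted p = 0.000643) and read 55.4 and 64.1 at 72 h. None of the RA values of either gene overlapped the untreated ones, and the 2 phosphatases moved in opposite directions.

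*Id2*, an inhibitor of basic helix-loop-helix factors, rose 2.65-fold and *Bhlhe40*, a repressor of the clock pathway, 2.55-fold at 12 h, while *Sgk1*, a serum-induced kinase, fell by 1.17 on the log2 scale. All 3 were also called at 72 h, in the same direction. At 72 h 5 rose and 3 fell in total: *Errfi1*, a feedback inhibitor of the EGF receptor, rose 3.12-fold, *Sik1*, a kinase, 2.25-fold and *Hes1*, a Notch target, 2.13-fold, whereas *Klf2*, a quiescence factor, fell by 2.64 on the log2 scale, from 29.3, 35.6 and 18.1 normalised reads to 4.88 and 2.38, and by 1.44 with a pseudocount of 10 in place of 1. Between 12 and 72 h *Klf2* and *Rhob*, a small GTPase gene, were called lower. Their log2 changes were -2.06, or -1.02 with a pseudocount of 10, and -1.06, and neither call held in every fit that left out 1 library. Without RA 72 h replicate 2 *Klf2* changed by -1.66 (limma adjusted p = 0.0868), and *Rhob* changed by -0.97 without RA 12 h replicate 2 (limma adjusted p = 0.0826) and by -0.77 without RA 72 h replicate 1 (limma adjusted p = 0.182). *Hes1* at 72 h was 0.83 without untreated replicate 1, 1.07 without RA 72 h replicate 1 and 1.12 without RA 72 h replicate 2, and was called in none of these. The median log2 change of the list was 0.17 at 12 h, -0.04 at 72 h and -0.05 between the times.

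Of 36 other bZIP genes, the family of AP-1, 33 were tested, and 3 rose at 12 h and none fell, against 1.42% of all tested genes called. *Hlf* rose 3.72-fold, *Maf* 2.95-fold and *Creb3l1*, a factor for collagen secretion, 2.07-fold, with 2 of them, *Hlf* and *Maf*, called at 72 h as well. Of 30 MAP kinase and SRF regulators all were tested and 0 were called in any comparison. At an unadjusted limma p below 0.05 there were 2, 6 and 5, against 16.3%, 23.9% and 18.9% of all tested genes. At a limma adjusted p below 0.05 without a fold minimum there was 1 in each comparison, against 4.37%, 11.5% and 5.84%. *Srf* itself read 455 to 576 normalised reads over the 8 libraries.

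Of 28 genes listed as AP-1 targets 24 were tested, of which 2 rose and 2 fell at 12 h, against 1.42% of all tested genes called. The matrix metalloproteinase genes *Mmp3* and *Mmp10* rose: *Mmp3* from 668, 784 and 805 normalised reads to 1918, 1920.0 and 1716 at 12 h, with 768 and 774 at 72 h. The chemokine genes *Ccl2* and *Ccl7* fell: *Ccl2* from 1986, 1696 and 2063 normalised reads to 511, 776.5 and 573 at 12 h and to 305 and 284.5 at 72 h. No untreated value of *Ccl2* overlapped an RA value, whereas *Mmp3* at 72 h lay within the untreated range.

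At 72 h 3 of the listed targets rose, *Mt1*, the metallothionein gene, 3.52-fold, *Plau*, the urokinase gene, 2.48-fold and *Tnc*, the tenascin gene, 2.09-fold, and *Ccl2* and *Ccl7* fell. Between 12 and 72 h 1 rose, *Mt1*, and 4 fell, *Mmp10*, *Spp1*, *Mmp3* and *Ccl2*. Over all tested genes 3.67% were called at 72 h and 1.5% between the times. The median log2 change of the list was 0.16 at 12 h, -0.35 at 72 h and -0.38 between the times. *Mmp10* at 12 h was 1.39 without RA 12 h replicate 1 (limma adjusted p = 0.0516), and *Tnc* at 72 h was 0.92 without RA 72 h replicate 2, below 2-fold. *Ccl2* between the times was -0.87 without RA 12 h replicate 2 and -0.997 without RA 72 h replicate 2, also below 2-fold. The called genes of the list went in both directions at either time.

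For *Myc*, 8 of 12 genes of the MYC and MAX network were tested, and *Mxd3*, a MAX partner that represses MYC sites, was the 1 called. It read 316, 315 and 361 normalised reads untreated, 362, 407 and 314 at 12 h, and 804 and 860.1 at 72 h, a 2.52-fold rise at 72 h (limma adjusted p = 2.35e-05). Of 32 MYC target genes 27 were tested and 1 was called, *Hk2*, the hexokinase gene, which rose 2.04-fold at 12 h and 2.01-fold at 72 h. It stayed just below 2-fold without untreated replicate 2 (0.98 and 0.96 on the log2 scale), at 12 h without RA 12 h replicate 3 (0.99) and at 72 h without RA 72 h replicate 2 (0.96). The median log2 change of the MYC targets was -0.03 at 12 h and -0.09 at 72 h. Of 16 ATF4 and stress genes, listed for *Atf3*, *Nupr1* rose at both times and *Vldlr* fell at 72 h. Between the times 0 were called. At an unadjusted limma p below 0.05 there were 7, 9 and 6 in the 3 comparisons, against 16.3%, 23.9% and 18.9% of all tested genes. At a limma adjusted p below 0.05 without a fold minimum there were 2, 7 and 3, against 4.37%, 11.5% and 5.84%.

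**Figure D5:**
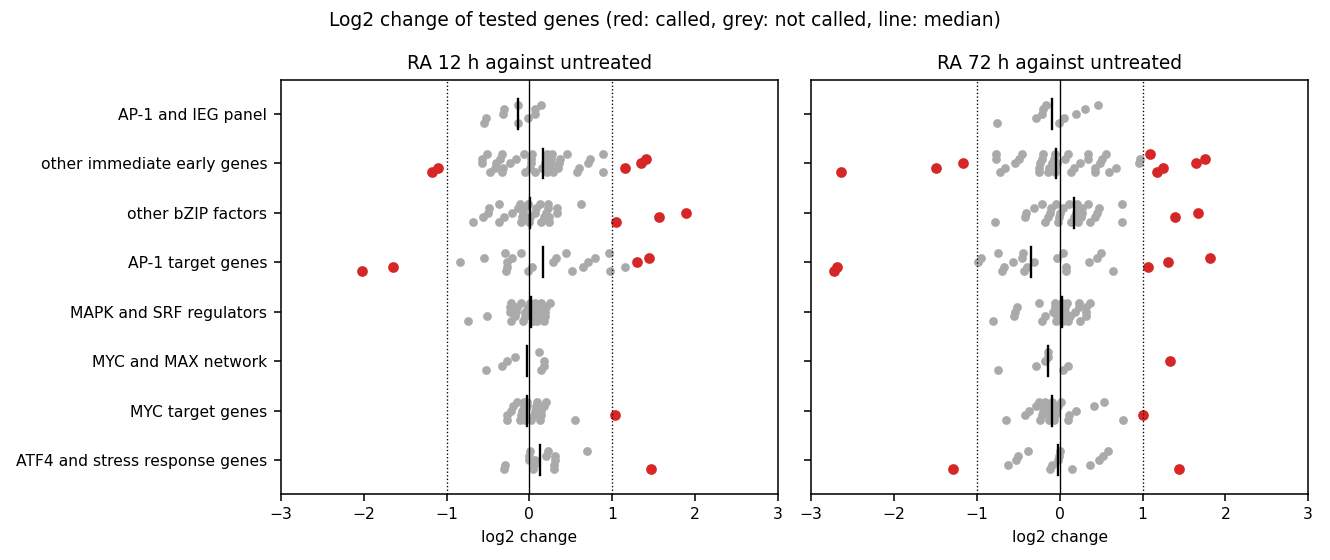
Log2 change (horizontal axis) of each tested gene of the 10-gene panel and of 7 lists at 12 h and at 72 h of RA against untreated cells; red points are called, grey points are not, dotted lines mark 2-fold and the short line is the list's median. The top row holds no red point, and red points of the AP-1 target list lie on both sides of 0.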

How the data were processed

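RNA of 8 libraries (untreated n = 3, RA 12 h n = 3, RA 72 h n = 2) was compared. The labels describe DpnII tag libraries read as 18 bases and build mm9, whereas the study's methods describe 54-base reads of fragmented RNA aligned with Tophat and summarised with Cufflinks. The deposited values, entered here as a score, are normalised reads per Ensembl gene that the authors had quantile normalised: the 8 sorted columns are identical and the values are multiples of 0.125. They are not counts, so no count model was used, and depth gives no interval. Times follow the labels, as in the study's results; its methods section gives 24 h for the later one.

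The 12673 genes whose average reached 10 entered the test, on log2(value + 1), a scale that understates changes of low genes, in 1 fit of the 3 groups with limma 3.58.1 in R 4.3.3, with a variance trend, two-sided, with Benjamini-Hochberg adjustment over all tested genes. The procedure was run on simulated data with independent noise in each library and with changes larger than those of the 10 genes. That run therefore does not bear on variation shared within a side or on small changes. The members and the lists were chosen with earlier results of these data known. List genes were named where called, at most 4 per direction, list and comparison with the largest change, and *Taf4a* and *Cyp26b1* served as checks. *Col1a1*, *Thy1*, *Lum*, *Fosb*, *Egr2*, *Egr3*, *Egr4* and *Srf* were named outside that rule, after their values were seen. Alternatives were the pseudocount, the filter, median centring, the variance trend, the side, each library left out and the call rule. Gene positions are from the mm9 annotation and promoters from RefSeq GRCm38.p6, which were not mixed.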

Additional observations from a re-analysis of the deposited data

Results flagged for a closer look

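No gene of the 10 differed between 12 and 72 h of RA by the test of that difference. Of the listed genes, 10 did, and 1.5% of all tested genes were called in this comparison. By list they were 2 of 44 tested other immediate early genes, 5 of 24 AP-1 targets and 1 of 8 MYC and MAX network genes. The others were 1 of 6 genes listed as a check of the retinoid response and 1 of 9 fibroblast markers. Each of the 10 was named by its call in the limma contrast of the 72 h with the 12 h libraries. That contrast equals the difference between their changes from the shared untreated libraries. The difference was -2.06 on the log2 scale for *Klf2* (-1.02 with a pseudocount of 10), -1.06 for *Rhob*, -1.26 for *Mmp3*, -2.43 for *Mmp10*, -1.36 for *Spp1*, -1.05 for *Ccl2* and -1.15 for *Col3a1*. It was 1.84 for *Mt1*, 1.21 for *Mxd3* and 1.14 for *Dhrs3*. *Klf2* read 4.88 and 2.38 normalised reads at 72 h, near the lowest value of the table. With 2 or 3 libraries per group, single outlying libraries were not tested for.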

How the results depend on the processing

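The count of 0 called genes among the 10 held under every alternative run except the fit without untreated replicate 3, where *Myc* was called at 72 h, so that leaving out each library gave 0 to 1. Over all tested genes the calls at 72 h fell to 297 with a filter of at least 50, and dropping the fold minimum gave 554, 1456 and 740 in the 3 comparisons. Leaving out each library gave 148 to 322 calls at 12 h, the highest without untreated replicate 3, 356 to 641 at 72 h and 150 to 211 between the times. With the side as a term 197, 512 and 230 of all tested genes were called in the 3 comparisons, and 0 of the 10. In that fit 2 small changes reversed, *Egr1* at 12 h to 0.038 and *Fosl2* at 72 h to 0.0039. Leaving out each library also turned the sign of *Egr1* (-0.063 to 0.057), *Junb* (-0.020 to 0.34), *Jund* (-0.046 to 0.14) and *Atf3* (-0.26 to 0.29) at 12 h and of *Fosl2* (-0.11 to 0.058) and *Ier3* (-0.012 to 0.12) at 72 h. The cause was not tested. The replicate number as a block gave 174, 430 and 172 calls over all genes and 0 among the 10. Deviations of same-numbered libraries correlated at -0.47 to 0.42 over 7 pairs, and not every library correlated best with its own number. The 2 libraries at 72 h deviate by equal and opposite amounts by construction, so these pairs are not independent. Whether the numbers pair the samples cannot be told from these correlations. Among the listed genes, *Klf2* moved to -1.44 at 72 h and -1.02 between the times with a pseudocount of 10, and *Hk2* at 72 h (0.98) and *Rhob* between the times (-0.96) fell below 2-fold with it, and *Rhob* missed the threshold without a variance trend (limma adjusted p = 0.0617). Median centring left all values as they were, since the quantile normalisation had already set the medians equal. The depth behind these values is unknown and limits the low genes, *Fos* and *Atf3*, most.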
